A study of Mus musculus with 4 samples.

Results

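The cytosolic ribosomal protein genes were followed in the globus pallidus of mice that had received cocaine or saline. Members were the genes whose symbol is Rpl or Rps with a number and an optional ending a, x, y or l, together with Rplp0, Rplp1, Rplp2 and Rpsa, and the Rps6k kinases and symbols with -ps were left out. This gave 75 of the 18761 genes tested, 48 of the large and 27 of the small ribosomal subunit, measured by 142 of the 45220 features of the array. Every animal was a male C57BL6 mouse trained for conditioned place preference, where animals come to prefer the side of a box paired with a drug. The cocaine mice received 15 mg/kg on days 2, 3 and 4 of the protocol and had a high preference score, and the control mice received saline on the same days. Each of 4 whole-genome Agilent arrays of 2 colours carried amplified RNA of 1 cocaine mouse and 1 saline mouse, so there were 4 mouse pairs. Pairs 1 and 3 had the cocaine RNA in Cy5, and pairs 2 and 4 had it in Cy3. Precision is limited by there being 4 arrays. A p-value or SE rests on the spread between these 4 pairs left after the dye is fitted, moderated by the spread over all genes.

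Cytosolic ribosomes consist of a small subunit, which reads the messenger RNA, and a large subunit, which joins amino acids into protein. Their protein components are made in matched amounts in almost every cell. In mammals most of their messenger RNAs begin with a run of pyrimidines, the terminal oligopyrimidine tract, through which the kinase mTOR and the RNA-binding protein Larp1 control their translation. In neurons, translation near synapses is needed for lasting forms of plasticity, and phosphorylation of Rps6 is widely used as a sign of recent activity. Arrays of this kind measure RNA and neither translation nor phosphorylation.

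The pyrimidine tract is the sequence feature that these genes are best known for, so the start sites are shown here for 8 members described below whose RefSeq start (GRCm38.p6) is a C followed by at least 4 pyrimidines. Each window runs 5′ to 3′ on the gene's strand from 15 bases before the start site to the 15th base of the transcript, and capitals mark the unbroken pyrimidine run at the start. Windows of Rpl4 and Rps7, which had the highest fitted change of their subunit and no such start, follow in lower case throughout.
Rpl28, chr7:4792950-4792979, plus strand: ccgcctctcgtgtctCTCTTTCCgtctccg
Rpl38, chr11:114668565-114668594, plus strand: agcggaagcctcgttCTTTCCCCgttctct
Rplp2, chr7:141447636-141447665, plus strand: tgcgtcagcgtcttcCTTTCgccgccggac
Rps6, chr4:86857353-86857382, minus strand: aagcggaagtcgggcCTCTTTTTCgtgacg
Rps10, chr17:27635230-27635259, minus strand: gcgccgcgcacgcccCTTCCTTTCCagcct
Rps15a, chr7:118116133-118116162, minus strand: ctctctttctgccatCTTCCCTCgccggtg
Rps21, chr2:180257364-180257393, plus strand: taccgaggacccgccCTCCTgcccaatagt
Rps27, chr3:90213634-90213663, minus strand: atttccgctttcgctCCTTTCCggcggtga
Rpl4, chr9:64173372-64173401, plus strand: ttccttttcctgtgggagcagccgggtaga
Rps7, chr12:28635939-28635968, minus strand: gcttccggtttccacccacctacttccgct

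Promoter windows were at hand for 61 of the 75 members, as 73 windows. Of these, 13 windows (17.8%) had a C and at least 4 pyrimidines at the annotated start on the transcript's strand, against 2.51% of all 32851 RefSeq windows. The letters CTTTC, which overlap that pattern, stood between 5 bases before and 15 bases after the start on the same strand in 17.8% of member windows and 2.34% of all windows. CGGAAG, the core of sites bound by ETS factors, stood on either strand within 250 bases before the start in 47.9% of member windows and 13.59% of all. The median fitted log2 change (likely cocaine over saline) was -0.044 over the 13 members with a pyrimidine start and -0.032 over the 48 without. A match is a description of letters and depends on where the annotation places the start.

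The deposited values are log2 ratios of scanner signals with no dye normalization, and they changed sign with the dye orientation. Over all features they correlated at 0.89 within an orientation and at -0.85 to -0.95 between orientations, so the columns were read as turned to 1 treatment direction. They are given as cocaine over saline, which is likely from the order in which the study's description names the animals and is not stated; the sign of every change below depends on it. Under the other reading, plain Cy5 over Cy3, the treatment and dye values of each gene given below would exchange places. After loess normalization within each array, the correlations over genes were 0.56 within both orientations and -0.43 to -0.72 between them. All 7 markers of pallidal neurons (Pvalb, Gad1, Gad2, Lhx6, Nkx2-1, Npas1, Penk) had a recovered signal above 360 scanner units, which is 4 times the floor. The median over all features tested was 230.5, so this shows that they were detected and does not identify the tissue.

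The ratios of all features changed with signal, and many ribosomal protein features lay at the bright end. Of their 142 features, 58 (40.8%) had a log2 recovered mean signal above 16, a scale that may overstate the brightest features, against 1.73% of all listed features. The deposited median of the member features was 1.06, -2.32, 1.29 and -1.32 in pairs 1 to 4. All listed features above that signal, the bright member features among them, had medians of 1.32, -2.50, 1.44 and -1.41 in the same pairs. The medians of all member features, most of which lay below that signal, had the same signs and were nearer to 0 on every array. The bright features of pair 2 stood further from 0 than those of the other pairs, pair 4 of the same orientation included.

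**Figure D1:**
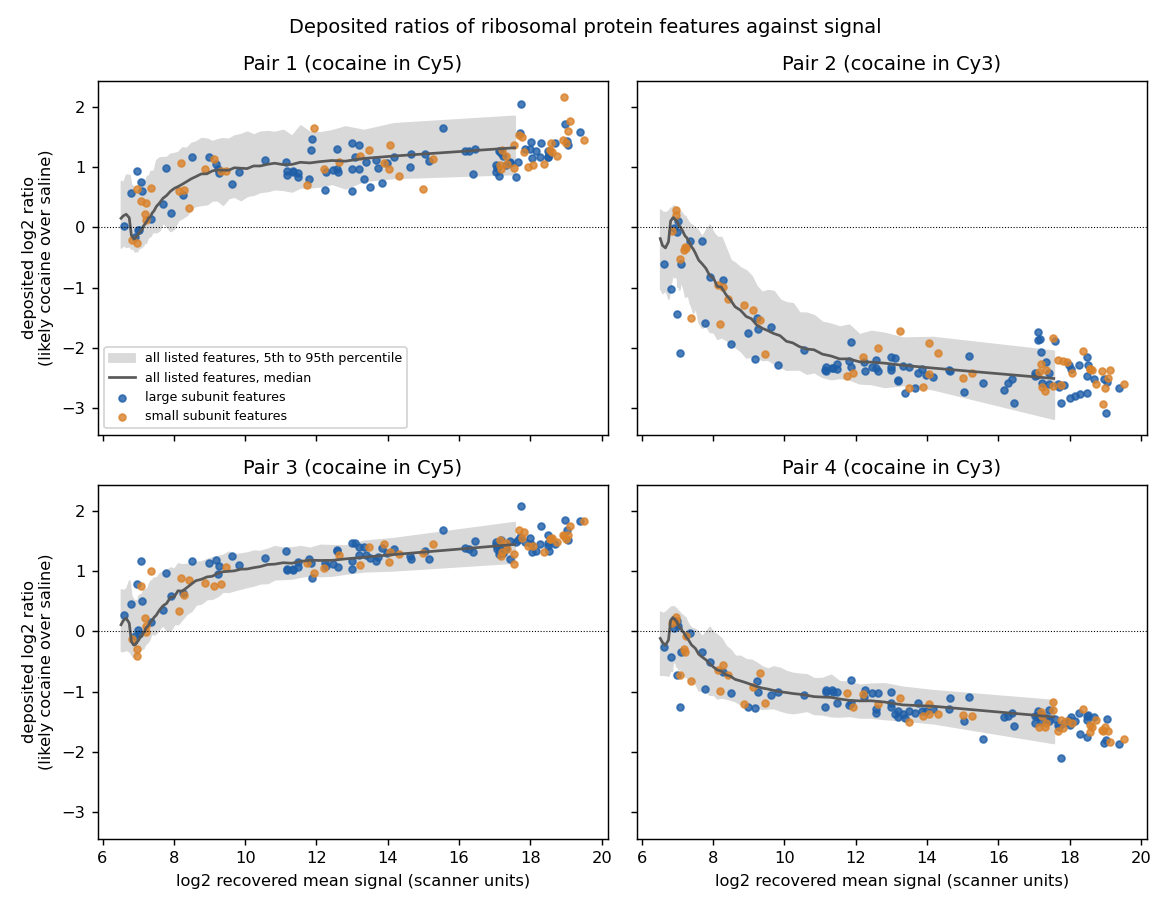
Deposited log2 ratio (vertical) of the 142 member features against log2 recovered mean signal (horizontal) in each of the 4 pairs; the grey line and band are the median and the 5th to 95th percentile of all listed features in 60 bins of signal. Member features follow the course of the other features, up to a median of 1.29 in pair 3 and down to -2.32 in pair 2.

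No ribosomal protein gene passed the test for a treatment change. In limma over all 18761 genes, 0 of 75 members had an adjusted p under 0.05, and 0% of all genes did. The lowest adjusted p of any member was 0.96. At an unadjusted p under 0.05 stood 1 member (1.33%), Rpl28, against 2.55% of all genes. Of the 75 members 44 had a fitted change below 0 and 31 above 0, and 52.6% of all genes were below 0. With the ratios as deposited, and with each array only centred on its median, 74 of 75 members were below 0, where 80.7% and 53.1% of all genes were, and 0 members passed the threshold in either. The median member stood at -0.032 and the median of all genes at -0.0052, on the log2 scale.

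Each member's 95% confidence interval from its moderated standard error lay within 0.5 log2 of 0, a factor of 1.41 in either direction, and 59 of the 75 intervals lay within 0.3, a factor of 1.23. The median SE was 0.068 over the members and 0.066 over all genes, so intervals of this width are not particular to the members. The share of all genes within these bounds was not computed. Only 1 member, Rps26, had an absolute fitted change above 0.2, where 3.91% of all genes did. A gene's own dye effect widens these intervals only where its size differs between arrays of the same orientation. Where its size differs between the orientations it enters the fitted change, and how far was not tested. The ratios carry no background subtraction, and its effect was not tested. In bulk tissue, fewer cells and less RNA per cell cannot be told apart.

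The subunits are given apart. In the large subunit 29 of 48 genes were below 0, with a mean change of -0.032 and a median of -0.040. In the small subunit 15 of 27 genes were below 0, with a mean of -0.011 and a median of -0.030. Averaged over its genes, the large subunit had ratios of -0.016, -0.089, 0.097 and -0.12 in pairs 1 to 4. The same averages of the small subunit were 0.0050, 0.0078, 0.048 and -0.11. Both subunits were highest in pair 3 and lowest in pair 4, and the spread of the 4 pair means (SD 0.097 for the large and 0.066 for the small subunit, n = 4) exceeded both averages. Within the pairs with cocaine in Cy5 the large subunit means had opposite signs, and within the pairs with cocaine in Cy3 both were below 0. The median of all genes lay between -0.016 and 0.0043 in the 4 pairs.

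**Figure D2:**
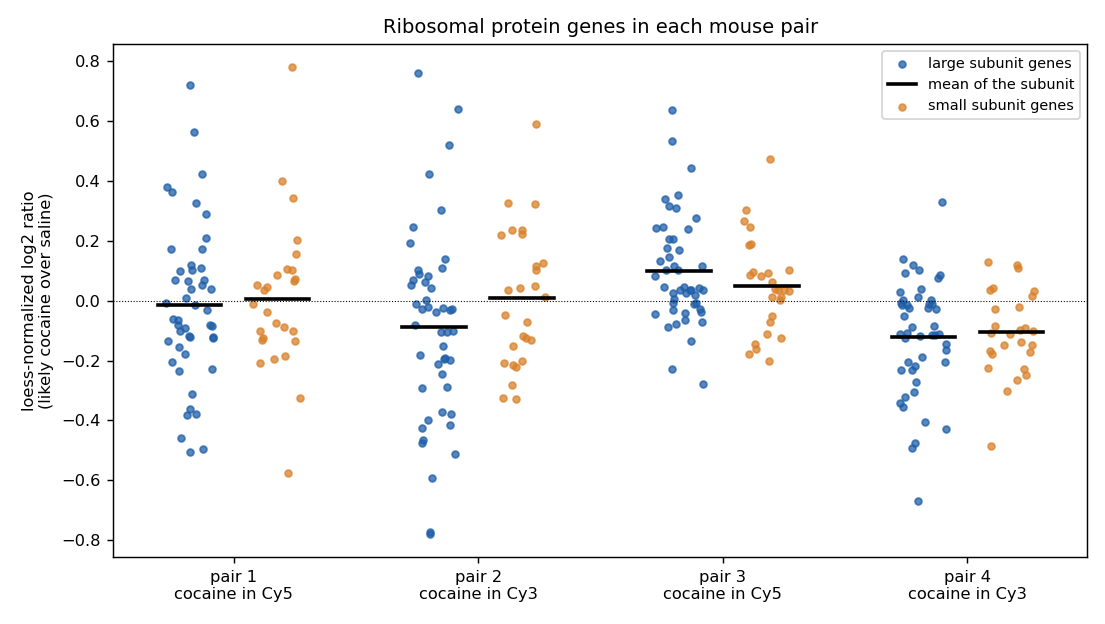
Loess-normalized log2 ratio of each of the 75 genes in each mouse pair (horizontal), with the subunits in separate colours and black bars at their means. Points spread on both sides of 0 in all 4 pairs; the means are highest in pair 3 (0.097 and 0.048) and lowest in pair 4 (-0.12 and -0.11).

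Each pair held members on both sides of 0. In pair 3, 52 of 75 members were above 0, and in pair 4, 19 were. In pairs 1 and 2 the counts above 0 were 34 and 31. Of all 18761 genes, 8818, 9110, 9451 and 9555 were above 0 in pairs 1 to 4. Over the 75 members, the ratios correlated at 0.48 between pairs 1 and 3, at 0.53 between pairs 2 and 4 and at -0.87 between pairs 3 and 4. All genes tested gave 0.56, 0.56 and -0.72 for the same pairs. These correlations are across genes, which are not independent replicates and share each array and its dye orientation.

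Rpl28, a large subunit protein, had the lowest unadjusted p of the members, and its values were -0.064, -0.47, 0.037 and -0.23 in pairs 1 to 4. It was low in the pairs with cocaine in Cy3 and near 0 in the others. The fitted change was -0.18 ± 0.066 (SE, n = 4 pairs), with a 95% interval of -0.34 to -0.020, an unadjusted limma p of 0.034 and an adjusted p of 0.96. The other large subunit genes at the low end were Rpl29 (-0.16), Rpl10 (-0.14), Rpl41 (-0.14) and Rpl19 (-0.14). Rpl10 joins the large subunit in one of its last maturation steps, and its values of -0.51, 0.051, -0.038 and -0.084 put pair 1 apart from the rest. Without pair 1 its fitted change was -0.027.

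At the high end of the large subunit stood Rpl4, which lines the tunnel through which the growing protein leaves. Its values were 0.38, 0.25, -0.28 and 0.33 in pairs 1 to 4, so pair 3 went against the others. The fitted change was 0.17 ± 0.11 (SE, n = 4 pairs), and it was 0.0040 without pair 1 and 0.33 without pair 3. Rpl38, which in mouse embryos is needed for the translation of Hox messenger RNAs, had 0.33, 0.089, 0.34 and -0.36, and a fitted change of 0.099 ± 0.085, which was -0.012 without pair 2 and 0.21 without pair 4. Rpl34 had 0.11, 0.11, 0.17 and -0.011, with a fitted change of 0.094 ± 0.059. None of these genes passed the test.

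Of the small subunit, Rps26, which sits where messenger RNA leaves the ribosome, had the lowest fitted change of all members at -0.20 ± 0.10 (SE, n = 4 pairs). Its values were -0.57, -0.13, 0.0030 and -0.099 in pairs 1 to 4. Pair 1 was the lowest by far, and without it the fitted change was -0.057. Rps16, whose tail touches the tRNA in the P site, followed with -0.12 ± 0.060, then Rps10 with -0.10 ± 0.072, Rps9 with -0.098 ± 0.061 and Rps19 with -0.090 ± 0.059. Mutations of human RPS19 and RPS26 cause Diamond-Blackfan anaemia.

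Rps7 had the highest fitted change of the small subunit, 0.14 ± 0.097 (SE, n = 4 pairs), from 0.20, 0.32, 0.24 and -0.23 in pairs 1 to 4. Pair 4 had the opposite sign to the other 3, and without pair 2 the fitted change was -0.0024. Rps21 had -0.075, 0.59, -0.15 and 0.13, and its fitted change of 0.12 became 0.0089 without pair 2. Rps14 had 0.78, -0.32, 0.081 and -0.15. Its fitted change of 0.096 became -0.078 without pair 1. Rps15a (0.083) and Rps29 (0.064) completed the upper end.

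**Figure D3:**
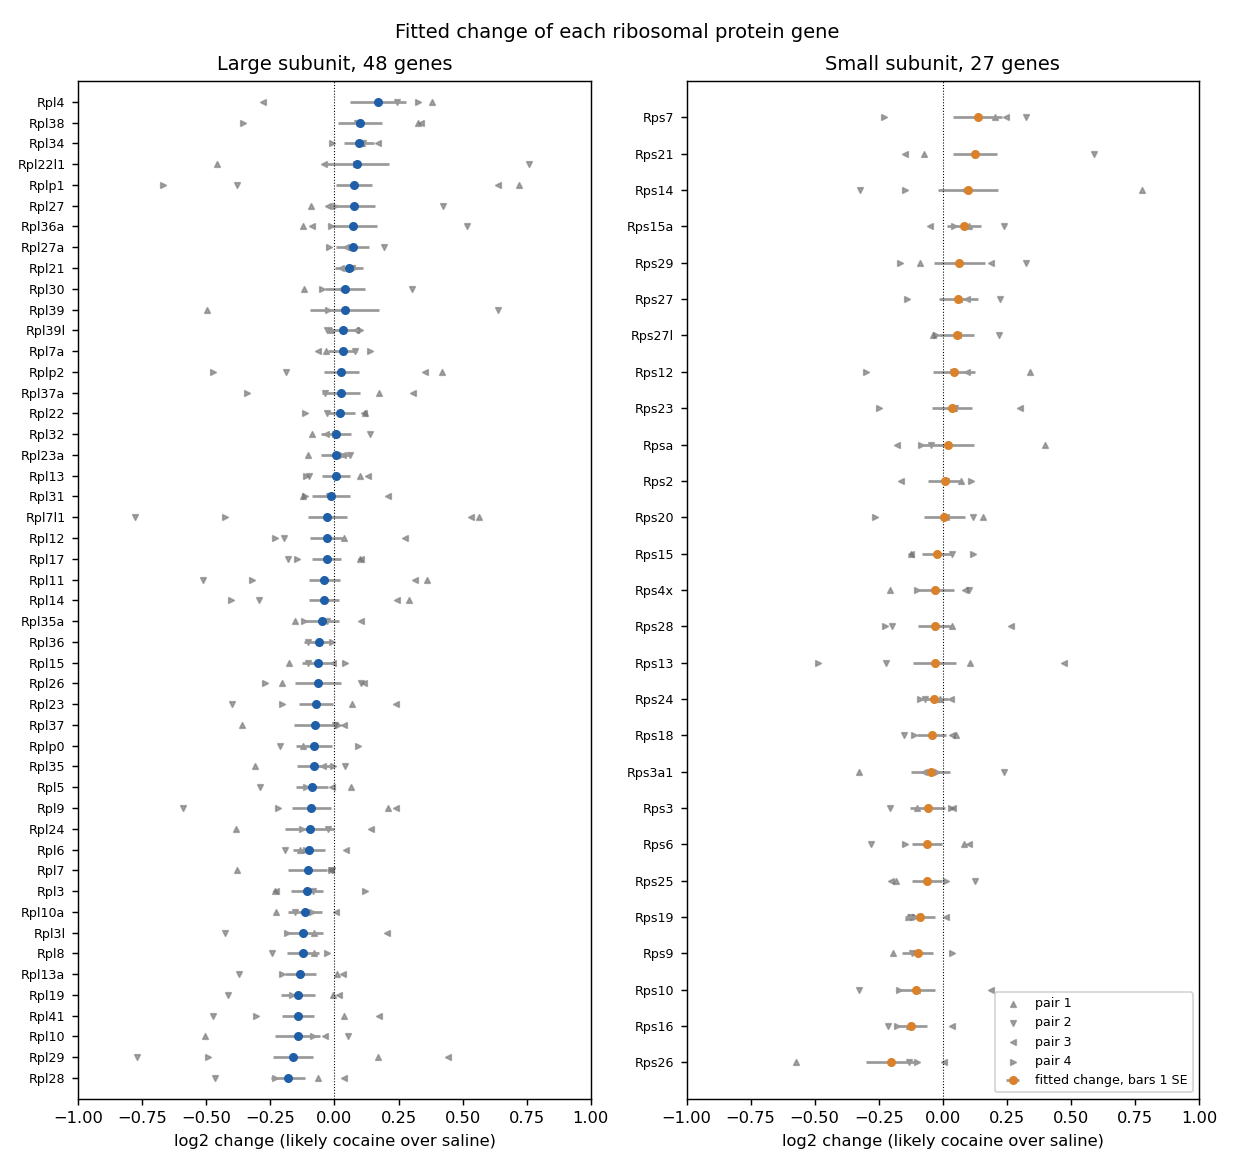
Fitted log2 change of each gene (horizontal, likely cocaine over saline; bars are 1 moderated SE) with the 4 pair values as grey triangles, ordered within each subunit. The fitted changes run from -0.20 (Rps26) to 0.17 (Rpl4), and for most genes the pair values lie on both sides of 0.

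The same sign in all 4 pairs was seen in 4 members (5.33%), a share near the 5.85% of all genes, and these 4 belong to the large subunit. Rpl8, which lies close to the centre where peptide bonds form, had -0.082, -0.24, -0.13 and -0.030 in pairs 1 to 4, and a fitted change of -0.12 ± 0.064 (SE, n = 4 pairs). Rpl36 had -0.060, -0.10, -0.070 and -0.011, with a fitted change of -0.061 ± 0.057. Rpl7 had -0.38, -0.010, -0.012 and -0.014, so its fitted change of -0.10 ± 0.076 came from pair 1 and was -0.012 without it. Rpl21, the only one above 0, had 0.053, 0.069, 0.027 and 0.076, with a fitted change of 0.056 ± 0.055.

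The stalk proteins, which recruit the elongation factors to the large subunit, differed in their dye values more than in their treatment values. Rplp0, the base of the stalk, had -0.12, -0.21, -0.079 and 0.093 in pairs 1 to 4 and a fitted change of -0.080 ± 0.071 (SE, n = 4 pairs), which was 0.031 with its brightest feature alone. Rplp1 had 0.72, -0.38, 0.64 and -0.67, and Rplp2 had 0.42, -0.19, 0.35 and -0.47. Both were above 0 whenever cocaine was in Cy5 and below 0 whenever it was in Cy3. Their fitted changes were 0.076 ± 0.070 and 0.027 ± 0.069. The dye terms, Cy5 over Cy3, were 0.60 ± 0.070 for Rplp1 and 0.36 ± 0.069 for Rplp2, with adjusted limma p of 0.0080 and 0.026.

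Rpl5 and Rpl11 enter the large subunit together with the 5S ribosomal RNA, and when ribosome assembly is disturbed they bind Mdm2 and stabilise p53. Rpl5 had 0.065, -0.29, -0.010 and -0.11 in pairs 1 to 4, and its fitted change was -0.087 ± 0.062 (SE, n = 4 pairs). Rpl11 had 0.36, -0.51, 0.32 and -0.32, which again followed the dye. Its fitted change was -0.039 ± 0.062, or 0.023 with its brightest feature alone, and its dye term 0.38 ± 0.062, with an adjusted limma p of 0.017.

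Rps6, the substrate of the S6 kinases, had 0.084, -0.28, 0.10 and -0.15 in pairs 1 to 4. Its fitted change was -0.060 ± 0.059 (SE, n = 4 pairs), with a 95% interval of -0.20 to 0.083. Rpsa, a small subunit protein also known as a laminin receptor, had 0.40, -0.048, -0.18 and -0.086, and a fitted change of 0.022 ± 0.10. Pair 1 stood above the other pairs for Rpsa, and neither gene passed the test.

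In 7 members the dye term passed the adjusted threshold, 9.33% against 13% of all genes. All 7 read higher in Cy5, which 9.49% of all genes did past the same threshold. They were Rplp1 (0.60), Rpl7l1 (0.57), Rpl29 (0.47), Rpl11 (0.38), Rplp2 (0.36), Rpl9 (0.31) and Rpl14 (0.31), all of the large subunit. In several of them a dim feature carried the term. The dimmer feature had 1.07 against 0.083 for Rpl7l1, 0.67 against -0.040 for Rpl9 and 0.60 against 0.15 for Rpl11. With the brightest feature of each gene, 3 members kept the call (Rplp1, Rplp2 and Rpl14), against 8.4% of all genes. Without the features below the median signal of 230.5 scanner units, and with loess run anew, only Rplp1 did. Of the 10999 genes then tested, 3.2% did. Rplp2 and Rpl14, each with 1 feature, were still measured there. The mean dye term was 0.073 over the large and 0.038 over the small subunit, and 0.030 over all genes. The largest dye term below 0 was that of Rpl22l1, -0.34 ± 0.13, which did not pass.

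**Figure D4:**
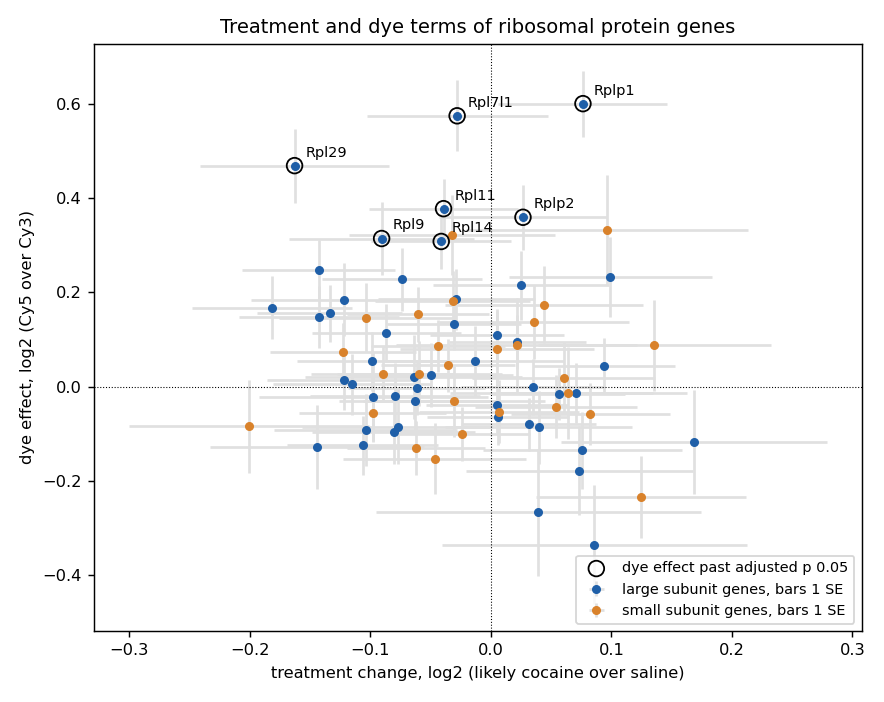
Dye term (vertical, log2, Cy5 over Cy3) against treatment change (horizontal, log2, likely cocaine over saline) of the 75 genes, with bars of 1 SE; rings mark the 7 genes whose dye term passed the adjusted threshold. The dye terms reach 0.60, and the treatment changes lie between -0.20 and 0.17.

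Some ribosomal proteins have a paralogue named after them, and 5 such pairs of genes were measured. Rpl22 had a fitted change of 0.022 ± 0.057 (SE, n = 4 pairs) and its paralogue Rpl22l1 one of 0.086 ± 0.13. Rpl22l1 had -0.46, 0.76, -0.040 and 0.085 in pairs 1 to 4, so its pairs 1 and 2 lay far apart. Rpl3, which reaches into the centre of peptide bond formation, had -0.11, and its muscle paralogue Rpl3l had -0.12. Rpl39, a short protein of the exit tunnel, had 0.040 and Rpl39l had 0.035. The only features of Rpl3l and Rpl39l had recovered signals of at most 163 scanner units, under 2 times the floor of 90, and no background was subtracted from their ratios. Rpl7 had -0.10 and Rpl7l1 had -0.028. Rps27, a zinc-binding protein of the small subunit, had 0.060, and Rps27l, whose transcription p53 induces, had 0.054. No gene of these pairs passed the treatment test, and the differences within pairs were not tested.

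Features of the same gene served as a check on the measurement itself. Rplp0 had 10 features of the same accession. On the 4 arrays their means were -0.15, -0.24, -0.091 and 0.11, with SDs over features of 0.040, 0.12, 0.072 and 0.061. Pair 4 lay above the other pairs, and pairs 1, 2 and 3 differed by amounts of the order of the spread over features. The other 2 features of Rplp0 had a mean fitted change of -0.024, and the 10 had -0.091. Of the 42 members with several features, 18 had features on both sides of 0, and the median gap between the highest and the lowest feature was 0.068. Neither value was computed over all genes.

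Rps2, Rpl29, Rps3 and Rps12 had the widest gaps. For Rps2, which lies at the entry of the messenger RNA, the 2 bright features had -0.046 and -0.13, and a feature of another accession with a signal of 126 scanner units had 0.20. The 4 features of Rpl29 ran from -0.34 to -0.057, and the lowest belonged to a feature with a signal of 135 scanner units whose dye term was 1.37. The features of Rps3, also at the messenger RNA entry, had 0.036 and -0.15, and those of Rps12 had 0.13 and -0.046. Many ribosomal protein genes have processed pseudogenes with near-identical sequence, and whether a feature also bound their RNA was not tested.

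In the other lists of translation genes, limma likewise put 0 genes past the adjusted threshold. At an unadjusted p under 0.05 stood 3 of 176 genes (1.7%, against 2.55% of all genes), namely Gspt1, Eif3f and Mrpl2. Of 11 elongation and termination factors 4 were above 0 and 7 below, with a median of -0.074. Eef1a1, which brings aminoacyl-tRNA to the ribosome, had 0.15 ± 0.11 (SE, n = 4 pairs), and Eef2, which moves the ribosome along, had -0.19 ± 0.10. Gspt1, a release factor, had 0.21, 0.26, 0.074 and 0.19 in pairs 1 to 4, all above 0, with a fitted change of 0.18 ± 0.059 and an adjusted limma p of 0.96. Of 29 initiation factors 14 were above 0 and 15 below, with a median of -0.013 and a range from -0.25 (Eif3k) to 0.21 (Eif4a1). Among them Eif3f, a subunit of the eIF3 complex, had -0.31, -0.24, -0.083 and -0.11, with a fitted change of -0.19 ± 0.067 and the same adjusted p of 0.96.

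Of 34 ribosome biogenesis factors 15 were above 0 and 19 below, with a median of -0.0053. Their fitted changes ran from -0.18 (Mybbp1a, a nucleolar protein) to 0.15 (Lyar). Of 16 genes of mTOR signalling 6 were above 0 and 10 below, with a median of -0.022 and a range from -0.22 (Akt1s1) to 0.16 (Sesn1). Mtor itself had 0.40, -0.85, 0.16 and -0.17, a fitted change of -0.12 ± 0.12, and Eif4ebp1, the repressor of eIF4E that it phosphorylates, had 0.029 ± 0.068. The 8 ribosome-associated factors were split into 4 above and 4 below 0, from -0.10 (Nsun5) to 0.12 (Sec61b).

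Mitochondrial ribosomal proteins, whose ribosomes translate only the messenger RNAs of the mitochondrial genome, were below 0 in 59 of 78 genes. Their median was -0.023, against -0.0052 over all genes. The mean over this list was -0.00094, -0.22, 0.091 and -0.030 in pairs 1 to 4, so pair 2 was the lowest, where the cytosolic genes were lowest in pair 4. The lowest was Mrpl2, with -0.48, -0.52, -0.10 and -0.074, a fitted change of -0.29 ± 0.10 and an adjusted limma p of 0.96. The highest was Mrpl32 at 0.10 ± 0.059.

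Cell type markers moved between pairs as well. The mean over the oligodendrocyte markers measured (Mbp, Mog, Mag and Mobp) was 0.41 in pair 1, where the ribosomal protein genes averaged -0.0084, and -0.22, -0.027 and -0.052 in the others. Mag alone had -0.046 in pair 1. Astrocyte markers had means of 0.28, -0.21, 0.12 and -0.013, above 0 with cocaine in Cy5 and below 0 with it in Cy3. The mean dye term was 0.155 over the astrocyte and 0.163 over the oligodendrocyte markers, against 0.030 over all genes. Mbp had a dye term of 0.51, with an adjusted limma p of 0.020. The pallidal neuron markers had means of -0.098, 0.029, 0.073 and -0.031. The mean of the 2 red blood cell genes measured ranged most, with -0.18, -0.59, 0.20 and 0.40, and the 4 endothelial markers, all with a fitted change above 0, had 0.018, 0.14, 0.041 and 0.10. Microglial, choroid plexus and general neuronal markers had pair means between -0.13 and 0.18. No marker passed the adjusted threshold for a treatment change in limma, and 1 neuronal marker had an unadjusted p under 0.05 for it. Their part in the values of the ribosomal protein genes was not tested.

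The subunit means depended on the processing. Leaving out 1 pair turned the sign of 15 of the 41 named members, and pair 2 alone did so for 12 of them (Rpl7l1, Rpl11, Rpl22l1, Rpl38, Rpl39, Rplp2, Rps3, Rps7, Rps12, Rps27, Rps27l and Rps29). How many of all genes turned sign was not counted. The large subunit mean was -0.27 in the ratios as deposited and -0.20 with median centring, and the small subunit mean was -0.25 and -0.17. The loess fits of other spans, or fitted without the member features, left them between -0.034 and -0.023 and between -0.014 and -0.0012. Without the brightest 1% of features, 59 members remained, 71.2% of them below 0, where 52.7% of all genes were. The small subunit mean over the remaining members was -0.038, against -0.011 over all its members. These means cover different genes, and some remaining genes had lost their bright features, so they do not compare the processing alone.

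**Figure D5:**
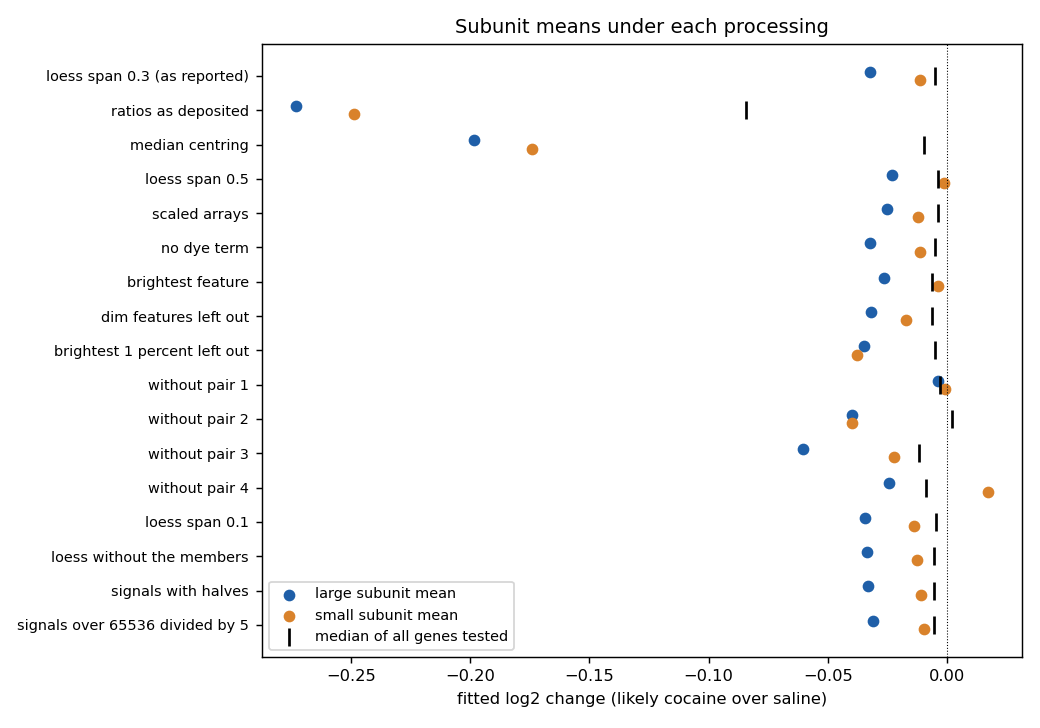
Mean fitted log2 change of the large and small subunit genes, and the median of all genes tested, under each processing. The subunit means lie apart from the median of all genes in the ratios as deposited (-0.27 and -0.25 against -0.084) and with median centring (-0.20 and -0.17 against -0.0097).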

How the data were processed

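The authors deposited 1 log2 ratio per feature and array, made with Agilent Feature Extraction per the submitters' processing notes; the version and any normalization are not given there. On arrays 1 and 3, 2 to the power of the deposited log2 value is a ratio of whole numbers within the 16-bit range (relative tolerance 1e-14) for 98.8% and 98.9% of values, so the ratios were read as unnormalized scanner signals. Mean signals were recovered from these fractions for 96.7% of features, above a floor of 90, and served all 4 arrays. Some log2 signals above 16 may be too high by a factor of about 5, which 1 alternative divides out. Each array was normalized by loess (span 0.3, 4 iterations) on listed features. Features of a symbol were averaged, and 18761 genes were fitted with limma 3.58.1 (R 4.3.3) on these ratios, read as cocaine over saline. The cocaine term was equal on every array, and the dye term changed sign with the orientation. The fit had 2 residual and 4.08 prior degrees of freedom, with Benjamini-Hochberg adjustment over all genes. The code was tested on simulated data. Symbols came from the platform annotation; 33653 features had 1 symbol, 56 several and 11511 none listed.

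The members and lists were chosen with earlier results of these data known. Genes named are the 5 highest and 5 lowest of each subunit, members of 1 sign in all pairs, paralogues with their namesakes, the 4 whose features differed most, 7 reference members, the 2 highest and 2 lowest of each other list (only some are printed), and Eef1a1, Eef2, Mtor and Eif4ebp1. Rpl9 and Rpl14 were named after their dye terms were seen. Without scanner files, background and slide batches were not tested. Of 16 alternatives, 4 (loess span 0.1, loess without the members, signals allowed to end in 0.5, bright signals divided by 5) were chosen after seeing the data.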

Additional observations from a re-analysis of the deposited data

Results flagged for a closer look

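Of 58 sets of 4 pair values checked, 1 held a value far from the others. Chance flags about 1 set in 20 if the 4 values vary alike. These values still carry the dye, so that rate may not hold for them. Rpl7, a large subunit gene measured by 3 features, had -0.38 in pair 1, while pairs 2 to 4 lay between -0.014 and -0.010. The gap made up 0.99 of the whole range. Without pair 1 its fitted change went from -0.10 to -0.012.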

How the results depend on the processing

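In the ratios as deposited the large subunit mean was -0.27, the small subunit mean -0.25, 74 members were below 0 (80.7% of all genes were) and 73 had a dye effect past the threshold (69.1% of all genes). With median centring the same values were -0.20, -0.17, 74 (53.1%) and 73 (74.9%). The bright end of pair 2 stands further from 0 than that of the other pairs, and both settings leave it in the ratios. The count of members with a dye effect was 7 as reported, 3 with the brightest feature of each gene and 1 without the features below 230.5 scanner units. Of all genes 13%, 8.4% and 3.2% had one in the same settings, with fewer genes tested in the last. The causes were not tested. Leaving out each pair in turn gave 0 to 10 members with a dye effect. Without pair 1 or pair 3 there were 0, and 0% of all genes had one. Without pair 2 there were 7, against 8% of all genes, and without pair 4 there were 10, against 14.6%. Over all genes, 0 passed the treatment threshold as reported and 0 to 3 with a pair left out (3 without pair 2 and 3 without pair 4); 0 members passed in any of the 16 alternatives. With a pair left out, the large subunit mean ran from -0.060 to -0.0039 and the small subunit mean from -0.040 to 0.017, above 0 without pair 4. Of the 75 members, 35 changed sign on leaving out some pair, and the share of all genes that did so was not computed. The median absolute change was 0.064 over members and 0.051 over all genes, with median SEs of 0.068 and 0.066. Of the 41 named members, none of which passed, 19 changed sign in the ratios as deposited and 19 with median centring. Without pair 4, 13 members (17.3%) had an unadjusted p under 0.05, as did 13.23% of all genes, with adjusted limma p of at least 0.23. Every fit pairs the mice of an array, and without a pair 1 dye orientation rests on a single array, assumed to vary like the others. A signal under 180 scanner units, a lower limit than the 230.5 used above, limits 17 of the 142 features.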
